A study of Mus musculus with 17 samples.

Results

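EpCAM and CD38 are the surface proteins by which one group of embryoid body (EB) cells was sorted for H3K27ac HiChIP, and the loops at their genes, Epcam and Cd38, are described here. Loops were taken when an anchor lay within 5 kb of the start site (TSS) of either gene on the mm9 build. Of 1211657 loops in all libraries after overlapping anchors were joined, 13 touched the Epcam window and 34 the Cd38 window, so the 2 genes held 47 loops. They are 2 of 22380 protein-coding genes in the annotation, of which 19244 had an anchor in this window.

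The groups were 12 libraries of unsorted EB cells (bulk) and 5 libraries that the labels call cluster2, which the study's methods give as EpCAM/CD38 double positive cells from flow cytometry. All came from R1 mouse embryonic stem cells, a line, grown as hanging-drop EBs and given 0.5 uM retinoic acid (RA) for 4 days, so there was no untreated group and no double negative group. The study chose both markers from single-cell expression of the same cell population, and the cells were gated on the proteins. A difference at Epcam or Cd38 therefore checks the sort and is not a finding about the sorted cells. Bulk cells also contain the double positive cells. Replicates are samples numbered in the labels. The double positive cells were collected in 5 separate sorts and HiChIP was run on portions of cells, but the sources used here do not tie each library to a sort or a culture. The p-values therefore measure the spread between these samples, part of which may be technical.

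EpCAM is a cell adhesion glycoprotein of epithelial cells and of pluripotent cells. CD38 is a surface enzyme that consumes NAD and makes cyclic ADP-ribose, a messenger that releases calcium. Bst1, its paralog, lies beside it on the chromosome. H3K27ac marks active promoters and enhancers, and HiChIP counts read pairs that join 2 regions carrying the mark, so a promoter's read pairs depend on the mark and on contact together. The assay measured neither RNA nor protein.

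A loop's value is the number of read pairs joining its anchors. Bulk libraries held 65178 to 241202 read pairs in loops, with a median of 135124.5, and double positive libraries held 50508 to 118179, with a median of 85966. The lists of anchors differed greatly. Bulk loops used 216073 anchors and double positive loops 15082, and 9.18% and 65.4% of them held a TSS. Only 12.3% of the bulk read pairs lay on anchors that both groups used (shared anchors), against 99.99% of the double positive read pairs. Every promoter level was therefore given on 3 scales. CPM is read pairs per 1000000 of a library's total, CPM on shared anchors takes only read pairs and totals from loops between shared anchors, and TMM-scaled CPM multiplies each total by edgeR's TMM factor. A gene listed at 0 in double positive libraries may lack an anchor there, and no fold is given for it.

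Both start sites lie in an anchor. Epcam (ENSMUSG00000045394.8) spans chr17:88035319-88050446 on the plus strand, and its window held 1 anchor, chr17:88034602-88037194, which carries the TSS and an exon. Cd38 (ENSMUSG00000029084.4) spans chr5:44260048-44303614 on the plus strand. Its TSS lies in the anchor chr5:44259216-44262226, and a second anchor upstream, chr5:44253882-44256176, was in the bulk list only. The 250 bases before each TSS are shown because these promoters define which loops were taken, and the central 200 bases of each gene's strongest partner because it is the region most often joined to that promoter over both groups. All are mm9 plus strand sequence, and capitals mark matches to motifs.
Epcam promoter, chr17:88035069-88035318: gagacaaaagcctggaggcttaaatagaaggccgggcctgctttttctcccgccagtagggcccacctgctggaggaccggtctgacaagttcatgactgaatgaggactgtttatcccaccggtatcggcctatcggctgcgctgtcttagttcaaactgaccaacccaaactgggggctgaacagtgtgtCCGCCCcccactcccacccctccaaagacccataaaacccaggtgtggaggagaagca
Cd38 promoter, chr5:44259798-44260047: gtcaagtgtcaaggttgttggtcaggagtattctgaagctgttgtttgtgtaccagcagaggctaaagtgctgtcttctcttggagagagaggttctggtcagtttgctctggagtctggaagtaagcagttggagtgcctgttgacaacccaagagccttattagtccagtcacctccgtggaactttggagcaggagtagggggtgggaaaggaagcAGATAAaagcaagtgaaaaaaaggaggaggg
Epcam partner, chr17:88012556-88012755: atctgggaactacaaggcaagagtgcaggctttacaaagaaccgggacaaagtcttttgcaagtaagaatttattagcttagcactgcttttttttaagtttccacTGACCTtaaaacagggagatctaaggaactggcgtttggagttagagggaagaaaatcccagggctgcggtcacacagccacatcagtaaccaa
Cd38 partner, chr5:44200577-44200776: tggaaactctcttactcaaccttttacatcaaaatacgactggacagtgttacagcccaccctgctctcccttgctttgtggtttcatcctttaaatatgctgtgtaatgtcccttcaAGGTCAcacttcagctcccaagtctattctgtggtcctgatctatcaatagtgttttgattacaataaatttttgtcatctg

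The search covered 6 motifs on both strands: the GC box GGGCGG, the TATA box TATAAA, the CCAAT box CCAAT, the GATA motif AGATAA, the half-site of RA receptors AGGTCA and the forkhead motif TGTTTAC. The Epcam promoter held 1 GC box, at -58 from the TSS, and 39.6% of the promoters of all 22380 genes held a match. The Cd38 promoter held 1 GATA motif, at -31, against 9.33% of all promoters. Each partner stretch held 1 RA receptor half-site, a match that 12.6% of promoters had in their 250 bases. The Epcam promoter had 8 CpG sites, equal to the median of all promoters, and the Cd38 promoter had 1 CpG site, at percentile 7.53. Over whole anchors the promoters differed in the same way. The Epcam anchor held 12 GC boxes, or 4.63 per kb, against a median of 0.750 per kb in the 15082 anchors of double positive loops. The Cd38 TSS anchor held 4 GATA motifs, or 1.33 per kb, against a median of 0.409. A match describes the letters only.

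Loops at Epcam carried 25 read pairs in the double positive libraries and 13 in the bulk libraries. Double positive replicates 1 to 5 had 84.6, 23.3, 118, 19.8 and 57.9 CPM at Epcam. The bulk libraries ranged from 0 to 17.2 CPM with a median of 9.05. All double positive libraries lay above all bulk libraries, and 4 bulk libraries had no read pair. No read pair allows up to 3, which is 12.4 to 46.0 CPM in those 4 libraries, so with these depths a level like the lowest double positive one could be missed in some of them. Epcam averaged 60.6 ± 41.5 CPM (SD, n = 5) against 7.91 ± 6.78 (SD, n = 12), 7.67-fold more. The difference of 52.7 CPM had a two-sided exact permutation p of 0.000162, the smallest that 5 against 12 libraries allow, and 0.000323 after adjustment over both genes. In such libraries more cells with a loop and more signal per cell cannot be told apart.

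Loops at Cd38 carried 51 double positive and 36 bulk read pairs. Double positive replicates 1 to 5 had 178, 69.8, 39.2, 158 and 135 CPM at Cd38. The bulk libraries ranged from 0 to 59.0 CPM with a median of 14.2. The groups overlapped through replicate 3 of the double positive group, which lay below bulk replicates 3 and 6, and the other 4 lay above every bulk library. Cd38 averaged 116 ± 59.2 CPM (SD, n = 5) against 22.1 ± 19.3 (SD, n = 12), 5.25-fold more. The exact permutation p of the 93.9 CPM difference was 0.000646.

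These folds need the level of other genes beside them. The median gene had a fold of 2.36 between the mean CPM values, with 1 CPM added to each, and at 36.4% of 14115 tested genes every double positive library lay above every bulk library, as at Epcam. On shared anchors the test passed at Cd38 and not at Epcam. Epcam averaged 60.6 ± 41.5 CPM against 48.7 ± 56.0 in the bulk libraries, which did not pass (exact permutation p = 0.661). Cd38 had 116 ± 59.2 against 26.1 ± 42.3 CPM on shared anchors, which passed (exact permutation p = 0.00420, adjusted 0.00840). Only 9 bulk read pairs at Epcam and 6 at Cd38 were left there, with 6 and 8 bulk libraries at 0. No read pair allows up to 3, or 81.3 to 423 CPM on shared anchors in those libraries. A level like the double positive mean could be missed in most of them. The fold of summed read pairs was 1.35 at Epcam (interval 0.608 to 3.28) and 4.12 at Cd38 (1.77 to 11.7). These intervals overlap, so the tests do not show that the markers differ. With TMM-scaled totals neither passed. Epcam had 25.1 against 11.8 CPM (exact permutation p = 0.0619) and Cd38 48.3 against 31.3 CPM (exact permutation p = 0.248).

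**Figure D1:**
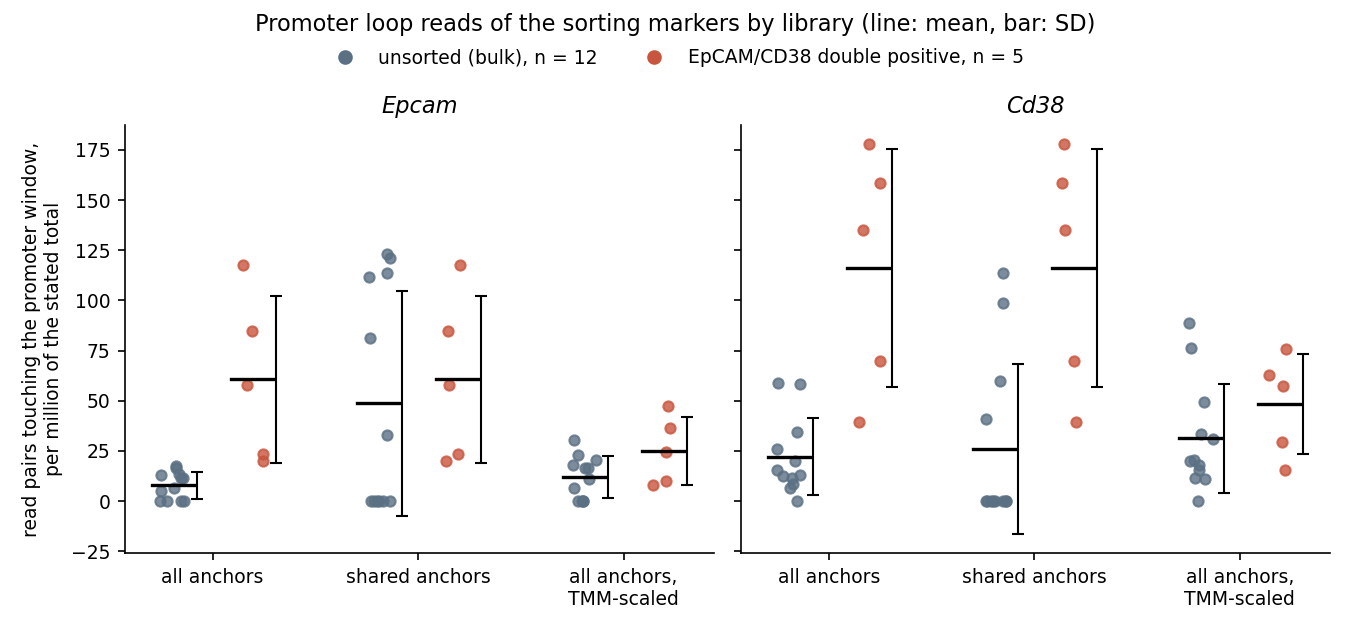
Read pairs touching the Epcam (left) and Cd38 (right) promoter windows in CPM of the stated total, in 12 bulk (grey) and 5 double positive (red) libraries on 3 scales. Points are libraries, lines means and bars SD. With all anchors Epcam averaged 60.6 CPM in double positive and 7.91 in bulk libraries without overlap, and on shared anchors the bulk mean was 48.7.

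The same comparison was fitted for all genes with edgeR's quasi-likelihood test, with p-values adjusted by Benjamini-Hochberg over all genes tested. With TMM scaling 20.4% of 14115 genes were called higher in double positive libraries and 42.9% lower, with a median log2 fold change of -0.52. With library size alone 55.3% were higher and 26.2% lower, with a median of 1.21. On shared anchors 25.7% of 9845 genes were higher and 10% lower, with a median of 0.42. Epcam had a log2 fold change of 1.04 (SE 0.57, edgeR adjusted p = 0.110) with TMM, 2.75 with library size alone (edgeR adjusted p = 2.9e-05) and 0.35 on shared anchors (edgeR adjusted p = 0.654). Cd38 had 0.65 (SE 0.44, edgeR adjusted p = 0.199), 2.38 (edgeR adjusted p = 6e-06) and 1.86 (SE 0.56, edgeR adjusted p = 0.00456). Both were called higher by library size, neither with TMM, and Cd38 alone on shared anchors. Epcam had 13 bulk read pairs, and Cd38 had 6 on shared anchors. There they reached the minimum of 20 read pairs for a test only through the double positive group. The filter thus favoured a rise, and these values are given as a description. Relative to the median gene, Epcam stood 1.56 higher with TMM and 0.07 lower on shared anchors. Counting anchors within 10 kb of the TSS turned the TMM value of Epcam to -0.27 (edgeR adjusted p = 0.663), while 2.5 kb took Cd38 to 1.01 (edgeR adjusted p = 0.0466).

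The single anchors that hold the start sites were tested too, and the Cd38 one was called where the gene was not. Of 43452 anchors tested with TMM, 10.5% were higher in double positive libraries and 75.5% lower. The Epcam anchor had a log2 fold change of 1.14 (SE 0.57, edgeR adjusted p = 0.0603). With 13 bulk read pairs, it too reached the minimum of 20 only through the double positive group. The Cd38 TSS anchor, with 51 double positive and 26 bulk read pairs, rose by 1.20 (SE 0.44, edgeR adjusted p = 0.0104), and lost the call without some single libraries (lowest value 0.93). The upstream anchor of the Cd38 window had 0 double positive and 11 bulk read pairs.

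Neither gene was among the strongest promoters. Per kb of anchor in the window, the double positive level was 23.4 CPM at Epcam and 21.9 CPM at Cd38. These stood at percentiles 73.7 and 72.3 of the 19244 genes, but at 55.1 and 52.7 of the 11272 genes with an anchor in the double positive list, whose median was 20.1 CPM per kb. In bulk libraries Epcam had 3.05 and Cd38 4.17 CPM per kb, at percentiles 20.1 and 32.7 of those 11272 genes. This counts all anchors of the window, also the upstream Cd38 anchor that is not in the double positive list. Over listed anchors alone the double positive level was 23.4 CPM per kb at Epcam and 38.5 at Cd38, against a median of 30.6 over those 11272 genes, which put them at percentiles 39.4 and 59.0.

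The partners of Epcam were mainly an upstream intergenic region and the promoters of its neighbours. The strongest partner lay 22.7 kb upstream (chr17:88011191-88014120), with no gene over it and Epcam as the gene with the nearest TSS. It was joined to Epcam by 6 read pairs in the double positive libraries, in 5 of 5, and by 7 in the bulk libraries, in 5 of 12. The promoter of Msh6, 338 kb downstream, was joined by 6 double positive read pairs from 3 libraries and by no bulk read pair. Msh6 encodes a subunit of the mismatch repair complex. Other partners with a TSS were Calm2, a calmodulin gene (189 kb upstream, 2 double positive and 0 bulk read pairs), Ttc7 (353 kb upstream, 2 and 1) and Fbxo11 (429 kb downstream, 2 and 0). A second intergenic region 65.0 kb upstream had 3 double positive and 1 bulk read pair. No Epcam loop had enough read pairs for a test.

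Of the double positive read pairs at Epcam, 14 of 25 (56.0%, 95% Clopper-Pearson interval 34.9 to 75.6) went to a partner with a TSS, against 1 of 13 in bulk libraries (7.69%, 0.195 to 36.0). Promoter loops of all genes went to such a partner in 76.9% of double positive and 34.2% of bulk cases, and in 71.9% of bulk cases on shared anchors. On shared anchors Epcam had 1 of 9 in bulk libraries (11.1%, 0.281 to 48.2). The intervals cover counting error only, since PCR copies are not independent molecules. The median distance of the partners was 176 kb in double positive and 22.7 kb in bulk libraries, over 25 and 13 read pairs. In double positive libraries 3.6 ± 2.41 Epcam loops were listed per library (SD, n = 5) against 0.917 ± 0.900 (SD, n = 12). That difference passed (exact permutation p = 0.00695, adjusted 0.0139), in libraries that list different numbers of anchors.

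Cd38 had a different layout, with 1 dominant loop. Its strongest partner was chr5:44197811-44203542, 59.4 kb upstream, in an intron of Fbxl5 and 6583 bp from the TSS of Bst1. Fbxl5 encodes an iron-sensing subunit of a ubiquitin ligase. Double positive replicates 1 to 5 had 12, 4, 1, 3 and 6 read pairs in this loop with the TSS anchor, 26 in all, and the bulk libraries had 5, in 3 of 12. The loop held 51.0% of the double positive read pairs of Cd38 (36.6 to 65.2) and 13.9% of the bulk ones (4.67 to 29.5). Another 2 bulk read pairs joined the region to the upstream anchor of the window.

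This was the only loop of either gene that passed the filter on low counts. Of 5369 loops tested with TMM, 38.5% were higher in double positive libraries and 22.3% lower, with a median log2 fold change of 0.80. With 5 bulk against 26 double positive read pairs, the Cd38 loop reached the minimum of 20 read pairs only through the group where it is high. A rise was thus favoured by the choice, and its fold changes with that filter are given as a description, with no test. The log2 fold change was 1.80 with TMM (SE 0.63). On shared anchors 52.1% of 4789 loops were higher and 11.5% lower, and the Cd38 loop had 2.05. Without double positive replicate 1 the value was 1.42. Without bulk replicate 3, which held 3 of the 5 bulk read pairs, it was 2.67, and with library size alone 3.94. With no filter on low counts, where that choice does not apply, it was 2.99 and did not pass (edgeR adjusted p = 0.252).

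The other Cd38 partners in double positive libraries were largely promoters. A start site of Fbxl5 86.6 kb upstream had 8 double positive read pairs and 1 bulk read pair. Tapt1, 357 kb downstream, had 5 and 0. Lap3, a leucine aminopeptidase gene 1626 kb downstream, had 3 and 0, as had a region 480 bp from the TSS of Fgfbp1 (114 kb downstream). The anchor with the start sites of Prom1, which encodes the surface glycoprotein CD133, and Gm16401 (234 kb downstream) had 3 and 1. The joint Bst1 and Fbxl5 promoter, 47.4 kb upstream, had only 1 double positive read pair. Another anchor with a Bst1 start site, 31.3 kb upstream, had 1 bulk read pair. It was not in the double positive list, so its contact with Cd38 could not be seen there.

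Bulk read pairs of Cd38 were spread thinly. The 36 read pairs lay in 27 loops, of which 22 had 1 read pair, while the 51 double positive read pairs lay in 9 loops. Of the 34 loops 2 were seen in both groups, a share that was not computed over all loops and is not read as a trait of Cd38. Of its bulk read pairs 16.7% lay on shared anchors, against 12.3% of all bulk read pairs. A partner with a TSS took 21 of 51 double positive read pairs (41.2%, 27.6 to 55.8) and 4 of 36 bulk read pairs (11.1%, 3.11 to 26.1). Both are below the 76.9% and 34.2% of all genes. On shared anchors only 6 bulk read pairs of Cd38 were left, 1 of them with such a partner (16.7%, 0.421 to 64.1). Within 100 kb lay 35 of 51 double positive (68.6%) and 18 of 36 bulk read pairs (50%), against 54.9% and 48.2% over all genes. At Epcam these were 11 of 25 (44.0%) and 10 of 13 (76.9%). The number of Cd38 loops listed per library was 4.2 ± 2.17 (SD, n = 5) and 2.75 ± 2.45 (SD, n = 12), a difference of 1.45 that did not pass (exact permutation p = 0.285). On shared anchors the difference was 3.87 loops and passed (exact permutation p = 0.000162), with no scaling for depth. There the bulk libraries held 7090 to 36909 read pairs and the double positive libraries 50505 to 118167. The test therefore cannot tell more loops from more depth.

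**Figure D2:**
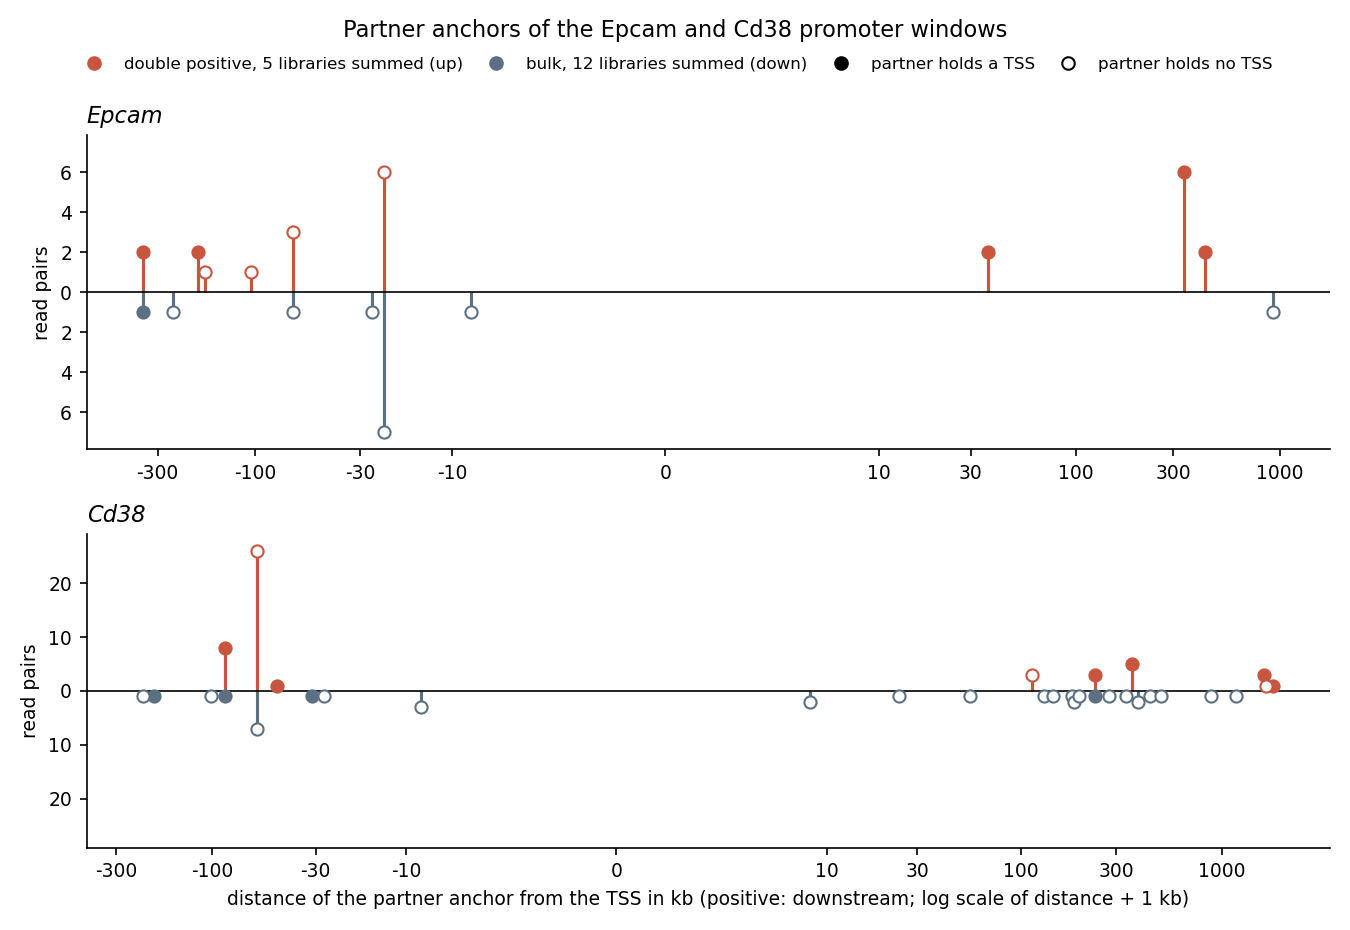
Partner anchors of Epcam (top) and Cd38 (bottom) by distance from the TSS in kb (log scale of distance plus 1 kb, downstream positive), with summed read pairs of 5 double positive libraries upward and of 12 bulk libraries downward. Filled points hold a TSS. The tallest Cd38 stem is the Fbxl5 intron with 26 double positive and 7 bulk read pairs, and Epcam's tallest are the region 22.7 kb upstream (6 and 7) and Msh6 (6 and 0).

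Each strongest partner was also read as an anchor of its own, with all its loops. The Epcam partner had 25 double positive and 180 bulk read pairs in all. Its level was 29.0 to 98.0 CPM in double positive libraries, with a median of 67.7, and 26.3 to 184 CPM in bulk libraries, with a median of 92 CPM. The groups overlapped, and with TMM the anchor fell by 2.42 (SE 0.39, edgeR adjusted p = 3.9e-07), which is less than the median fall of all anchors, -4.38. In 1 alternative setting its value was -0.77 and did not pass, while 8 others gave -2.72 to -1.30 and passed. It had 12 partners in double positive and 100 in bulk loops. Of its read pairs, 24% (9.36 to 45.1) went to Epcam in double positive and 3.89% (1.58 to 7.85) in bulk libraries. Since the partner was chosen by its read pairs with Epcam, these shares are a description, with no test. On shared anchors the shares were 24% and 19.4% (8.19 to 36.0), with overlapping intervals.

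The Cd38 partner had 137 double positive and 127 bulk read pairs, and its level was 294 to 389 CPM (median 302) in double positive and 23.1 to 148 CPM (median 57.7) in bulk libraries. The groups did not overlap in CPM, yet with TMM the log2 fold change of the anchor was 0.47 (edgeR adjusted p = 0.130). It had 9 partners in double positive and 63 in bulk loops. Cd38 took 19.0% (12.8 to 26.6) of its double positive and 5.51% (2.24 to 11) of its bulk read pairs, again a description, since the choice of the partner used these read pairs. On shared anchors this was 19.0% against 12.8% (4.30 to 27.4), again with overlapping intervals. Among the partners with most read pairs, the Lap3 promoter anchor also rose (1.55, SE 0.46, edgeR adjusted p = 0.00172) and the Prom1 anchor fell by 1.44 (SE 0.57, edgeR adjusted p = 0.0172), the latter turning to 0.16 with library size alone. Without bulk replicate 3 the Prom1 anchor had -0.80, which did not pass.

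The surroundings of the genes were read in the same way. All loops with both anchors within 500 kb of the Epcam TSS gave 346 CPM on average in double positive and 354 ± 402 CPM in bulk libraries (SD, n = 12, exact permutation p = 0.989), and at Cd38 386 and 295 CPM (exact permutation p = 0.470). Both values rested on 1 bulk library at each gene, picked after its level was seen. Without bulk replicate 7 the bulk mean at Epcam was 239 CPM, so that the difference turned from -7.84 to 107 CPM (exact permutation p = 0.0341, not adjusted). Without bulk replicate 3 the bulk mean at Cd38 was 230 CPM and the difference 156 CPM (exact permutation p = 0.00504, not adjusted). On shared anchors the Cd38 surroundings had 386 against 176 CPM, which passed as the promoter did (exact permutation p = 0.0100, adjusted over 4 tests 0.0401), and at Epcam they had 346 against 292 CPM, which did not (exact permutation p = 0.625). Of the read pairs in the Epcam surroundings 25 of 140 touched its promoter window in double positive libraries (17.9%, 11.9 to 25.2) and 12 of 649 in bulk libraries (1.85%, 0.959 to 3.21). At Cd38 these were 46 of 163 (28.2%, 21.5 to 35.8) and 33 of 540 (6.11%, 4.24 to 8.48). Both differences passed over libraries (exact permutation p = 0.000162 and 0.000646), in lists of unlike length. Of 125 anchors around Epcam 11 were in the double positive list, and of 123 around Cd38 7 were. With fewer anchors listed, an average anchor takes a larger share of the read pairs. These tests therefore cannot tell a larger share of the promoter from a shorter list, and the shares are a description. On shared anchors the bulk shares were 14.5% (6.86 to 25.8) at Epcam and 15.4% (5.86 to 30.5) at Cd38, from 62 and 39 read pairs, and at both genes the intervals of the groups overlapped.

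These bulk libraries stood apart at their locus. Bulk replicate 7 had 281 read pairs, or 1614 CPM, around Epcam, spread over 247 loops with at most 3 in one, while the other bulk libraries had 131 to 365 CPM. Bulk replicate 3 had 205 read pairs, or 1009 CPM, around Cd38, in 174 loops, against 120 to 361 CPM in the others. Without that library the bulk share was 2.45% at Epcam and 6.57% at Cd38. The CPM differences of the promoters were then 53.6 (exact permutation p = 0.000229) and 97.3 (exact permutation p = 0.000458), so they were as large without these libraries.

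**Figure D3:**
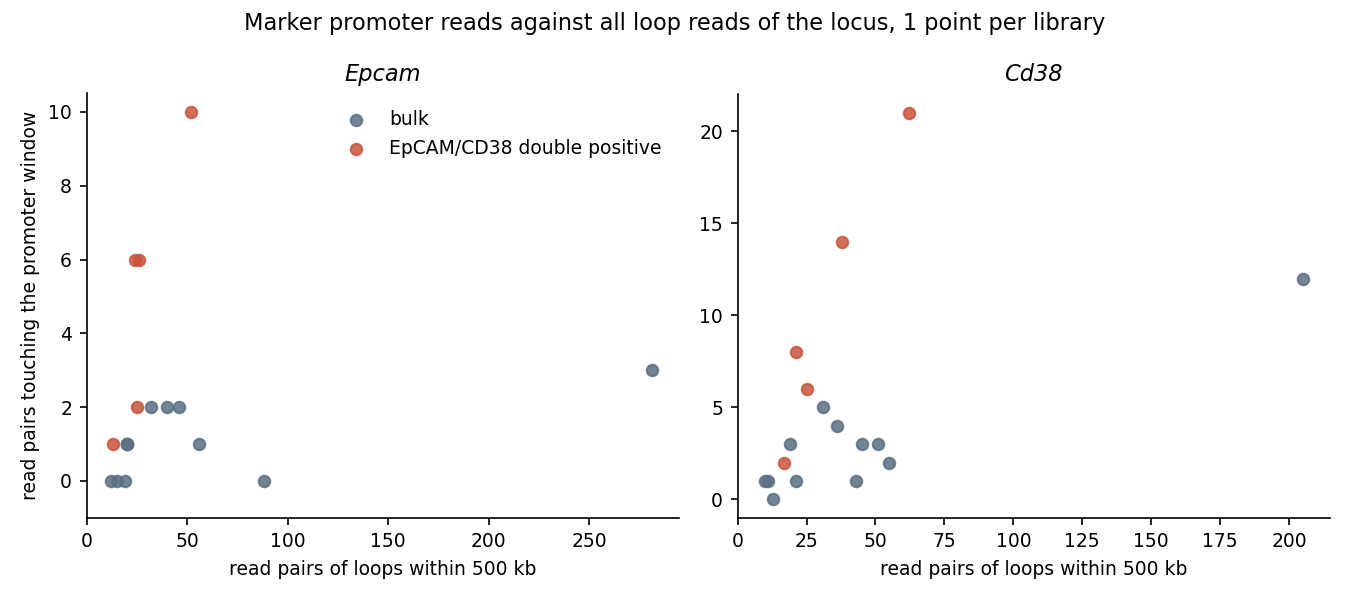
Read pairs touching the promoter window (vertical axis) against all loop read pairs within 500 kb (horizontal axis), with 1 point per library, for Epcam (left) and Cd38 (right). Bulk libraries are grey and double positive libraries red. Bulk replicate 7 at Epcam (281 read pairs) and bulk replicate 3 at Cd38 (205) lie far to the right.

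The neighbours within 500 kb were read on the same 3 scales. Of 16 neighbours described here, 12 had enough read pairs for the test with TMM, and 5 of those were called lower in double positive libraries and 0 higher, against 42.9% and 20.4% of all genes. Bst1, the CD38 paralog, fell by 1.22 with TMM (SE 0.48, edgeR adjusted p = 0.0254), and had 0.50 with library size alone and 0.40 on shared anchors, neither of which passed. Its level was 58.2 ± 16.2 CPM in double positive (SD, n = 5) and 36.1 ± 33.6 CPM in bulk libraries (SD, n = 12). Prom1 and Gm16401, which share an anchor and so read pairs, fell by 1.75 and 1.51 with TMM (edgeR adjusted p = 0.0070 and 0.0214) and had -0.07 and 0.17 with library size alone. Without bulk replicate 3, Bst1 had -0.85 and Gm16401 -0.93, neither of which passed. The Bst1 call was also lost without double positive replicate 2 or 5 (-1.15 and -1.09), and that of Gm16401 without double positive replicate 3 (-1.30), while Prom1 passed with each library left out (-2.10 to -1.25). Fbxo11, which encodes a ubiquitin ligase subunit, fell by 1.32 with TMM (edgeR adjusted p = 0.0052) and had 0.46 with library size alone and 0.53 on shared anchors. Cc2d2a, a gene of the primary cilium, had 0 double positive and 45 bulk read pairs and no anchor in the double positive list.

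The other tested neighbours described here did not pass with TMM. Msh6 had 0.34, Fbxl5 -0.31, Tapt1 -0.37 and Ttc7 -0.58, while Calm2, Fgfbp1 and Mcfd2 lay within 0.05 of 0. On shared anchors Tapt1 had 2.33 (edgeR adjusted p = 0.00106) and Ttc7 1.46 (edgeR adjusted p = 0.0146). With 4 and 9 bulk read pairs there, both reached the minimum of 20 only through the double positive group, so these values are a description. C1qtnf7, Gm5292, Kcnk12 and 1700011E24Rik had too few read pairs for a test, with 14, 9, 16 and 5 in bulk libraries and none in double positive libraries. With TMM both markers had the highest value among the genes described at their locus. On shared anchors Tapt1 lay above Cd38, and 4 of the 5 tested neighbours described near Epcam lay above it. Tapt1 and those 4 had 4 to 13 bulk read pairs there, so the same limit holds for them, as for the markers, and the order is a description.

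**Figure D4:**
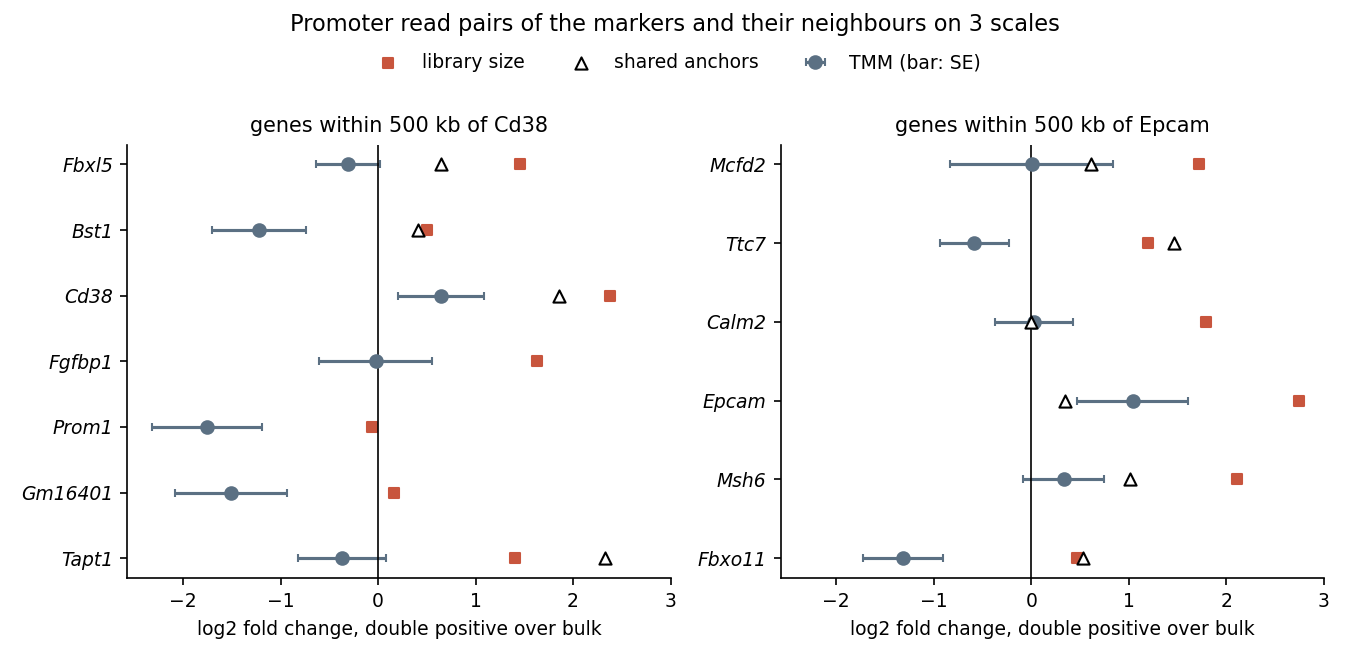
Log2 fold change of promoter read pairs, double positive over bulk, for the markers and the described neighbours with double positive read pairs, ordered by position, within 500 kb of Cd38 (left) and Epcam (right). Circles with SE bars are TMM, squares library size alone and triangles shared anchors. With TMM Epcam (1.04) and Cd38 (0.65) lie furthest right, and on shared anchors Tapt1 (2.33) lies right of Cd38 (1.86).

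Proteins that bind, cut or regulate EpCAM were followed in a list of 20 genes, of which 17 were tested. With TMM 4 rose and 5 fell, with 8 not past the threshold, and with a median log2 fold change of -0.29. All genes tested gave 20.4% higher and 42.9% lower with a median of -0.52, so the share of members that rose was near that of all genes. With library size alone 10 were higher and 5 lower (all genes 55.3% and 26.2%), and on shared anchors 7 of 13 were higher and 2 lower (all genes 25.7% and 10%). The 4 that rose with TMM were also higher on the other scales. They were Spint2, Prss8, Cldn7 and Spint1. Spint2 and Spint1 encode Kunitz-type inhibitors of surface serine proteases, Prss8 the protease prostasin, and Cldn7 a tight junction claudin that binds EpCAM. Spint2 had 951 ± 145 CPM in double positive (SD, n = 5) and 68.4 ± 26.2 CPM in bulk libraries (SD, n = 12), with a log2 fold change of 2.02 (edgeR adjusted p = 1.5e-09). Prss8 had 548 ± 36.6 and 54.2 ± 32.4 CPM, with 1.59 (edgeR adjusted p = 6.7e-06).

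Among the genes of this list with double positive read pairs, those that fell were Psen2 and Ncstn, subunits of gamma-secretase, the enzyme that cleaves EpCAM within the membrane. Psen2 fell by 4.14 and Ncstn by 2.54 with TMM (edgeR adjusted p = 1.4e-14 and 8.0e-12), and both also had negative values with library size alone and on shared anchors. Both lie on distal chromosome 1. On chromosome 1 beyond 130 Mb and chromosome 2 beyond 150 Mb, an average anchor had 2.87 to 5.27 times the read pairs of an anchor elsewhere on autosomes in bulk libraries, and 0.812 to 0.833 times in double positive libraries. The part of this ratio in the values of Psen2 and Ncstn was not tested. Without the 2 genes, 4 of 15 rose and 3 fell. Cdh1, the epithelial cadherin, had -0.56 with TMM, which did not pass, and 2.10 on shared anchors (edgeR adjusted p = 0.0189), so its sign turned. The other 3 that fell, Ctnnb1, Adam10 and Tspan8, were listed at 0 in every double positive library, with 81, 34 and 22 bulk read pairs. Ctnnb1 and Adam10 are used widely in cells, and the 3 were named after their values were seen.

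Genes of the CD38 family and of NAD metabolism formed a list of 23, of which 20 were tested. With TMM 5 rose, 9 fell and 6 did not pass, with a median of -0.73, shares near the 20.4% and 42.9% of all genes. Of the 9 that fell, 5 were listed at 0 in double positive libraries and may lack an anchor there. With library size alone 10 were higher and 7 lower (all genes 55.3% and 26.2%), and on shared anchors 5 of 15 were higher and 2 lower (all genes 25.7% and 10%). Tpcn1, a two-pore calcium channel of endosomes and lysosomes, had 490 ± 55.0 CPM in double positive (SD, n = 5) and 42.2 ± 18.7 CPM in bulk libraries (SD, n = 12), with a log2 fold change of 1.72 (edgeR adjusted p = 1.1e-06). Sirt6, an NAD-dependent deacetylase, had 606 ± 83.2 and 47.5 ± 29.0 CPM, with 1.73 (edgeR adjusted p = 1.1e-06). Both were higher on all 3 scales. Parp1, which uses NAD in DNA repair and also lies on distal chromosome 1, fell by 3.66 (edgeR adjusted p = 2.8e-11) and was lower on all 3 scales. Sirt1 had 0 double positive and 79 bulk read pairs. Without the 2 tested members on distal chromosome 1, 5 of 18 rose and 7 fell.

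RA induces a set of target genes through its nuclear receptors. Of 12 genes tested, 3 rose and 6 fell with TMM, with a median of -1.16, 6 were higher and 3 lower with library size alone, and 3 of 9 were higher and 4 lower on shared anchors. With TMM these shares were near the 20.4% and 42.9% of all genes, which were 55.3% and 26.2% with library size alone and 25.7% and 10% on shared anchors. Stra6, the retinol transporter, had 1.99 and Stra8 1.94 (edgeR adjusted p = 7.8e-12 and 1.8e-06), both higher on all 3 scales. Hoxb1, a hindbrain homeobox gene, fell by 2.64 (edgeR adjusted p = 1.4e-09), with negative values on the other scales. Rarb, an RA receptor gene, had 0 double positive and 346 bulk read pairs.

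Marker lists checked which cells the gate held. The labels give the cell type as embryonic stem cell, the cells from which the EBs were grown. Of 14 endoderm markers 6 rose and 3 fell with TMM, 11 were higher and 2 lower with library size alone, and 8 of 12 were higher and 0 lower on shared anchors. All genes gave 20.4% higher and 42.9% lower with TMM, 55.3% and 26.2% with library size alone, and 25.7% and 10% on shared anchors. The median of the list with TMM was 0.62, against -0.52 for all genes. Their summed level was 4307 to 5214 CPM in double positive libraries, with a median of 4665, and 519 to 770 CPM in bulk libraries, with a median of 655. Krt18 and Krt8, epithelial keratins, had log2 fold changes of 2.96 and 2.95 (edgeR adjusted p = 1.4e-13 and 3.8e-10). Of the 3 that fell with TMM, 2 were listed at 0 in double positive libraries and may lack an anchor there. Among these was Hnf4a, an endoderm transcription factor gene on distal chromosome 2, with 262 read pairs in bulk libraries. Endoderm transcription factors with an anchor in the double positive list included Gata4 and Foxa2, which rose by 1.73 and 1.5. Sox17 had -0.57 with TMM and 4.01 on shared anchors.

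Neural markers ran the other way. Of 10 tested, 8 fell and 0 rose with TMM, 7 were lower and 2 higher with library size alone, and 7 of 9 were lower and 0 higher on shared anchors. In that order 42.9%, 26.2% and 10% of all genes were lower. The median of the list with TMM was -3.40. Their summed level was 411 to 686 CPM in double positive libraries (median 495) and 650 to 1483 CPM in bulk libraries (median 1049), with Pax6 the most abundant in bulk (239 CPM) and Elavl3 in double positive libraries (186 CPM). The ranges overlapped by a little. Pou3f2, a neural transcription factor, fell by 5.16 and Pax6 by 3.17 with TMM (edgeR adjusted p = 4.0e-13 and 4.7e-11). Sox3 had no read pair in either group, and Isl1 had 0 and 5.

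Of the pluripotency markers only 4 of 10 had enough read pairs. Pou5f1, Klf4 and Tdgf1 rose, by 1.06, 1.45 and 1.01 with TMM, and Esrrb had 0 double positive and 132 bulk read pairs. In 1 alternative setting Klf4 had 0.61, which did not pass, while 11 others gave 1.15 to 3.17 and passed. With library size alone 3 were higher and 1 lower, and on shared anchors 2 of 3 were higher and 0 lower (all genes 20.4%, 55.3% and 25.7% higher on the 3 scales). The median with TMM was 1.03 over these 4 genes. Nanog, Utf1, Fgf4, Dppa5a and Tfcp2l1 had no double positive read pair. Of 9 feeder fibroblast markers 4 were tested, with 3 lower and 0 higher with TMM, 3 lower and 1 higher with library size alone, and 1 tested on shared anchors without a call (all genes 42.9%, 26.2% and 10% lower). The median with TMM was -4.73, or -3.74 with genes at 0 set to their bound. Col1a1 had 0.86, which did not pass, Col1a2 fell by 4.33 with 1 double positive read pair, and Pdgfra and Prrx1 had 0 double positive read pairs. The summed level of this list was 48.3 to 140 CPM in double positive and 52.5 to 208 CPM in bulk libraries, most of it Col1a1 in the double positive libraries.

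Blood cell markers were included because CD38 is known from lymphocytes and blood progenitors. Of 8 members 7 were tested. With TMM 1 rose and 4 fell, with library size alone 4 were higher and 3 lower, and on shared anchors 2 of 4 were higher and 0 lower. All genes gave 20.4% higher and 42.9% lower with TMM, 55.3% and 26.2% with library size alone, and 25.7% and 10% on shared anchors. The median with TMM was -0.91, and without the 2 tested members on distal chromosome 1 it was 0.56, with 1 of 5 higher and 2 lower. Their summed level was 535 to 862 CPM in double positive libraries (median 657) and 167 to 384 CPM in bulk libraries (median 245), with Lyl1 the most abundant in double positive (371 CPM) and Cd34 in bulk libraries (60.4 CPM). Lyl1, a blood and endothelial transcription factor, had a log2 fold change of 1.92 (edgeR adjusted p = 2.5e-06). Ptprc, which encodes the pan-leukocyte CD45, Cd34 and Runx1 had 0 double positive read pairs, with 44, 82 and 58 in bulk libraries, and Gata1 had none in either group. The part of blood cells in the Cd38 level was not tested.

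**Figure D5:**
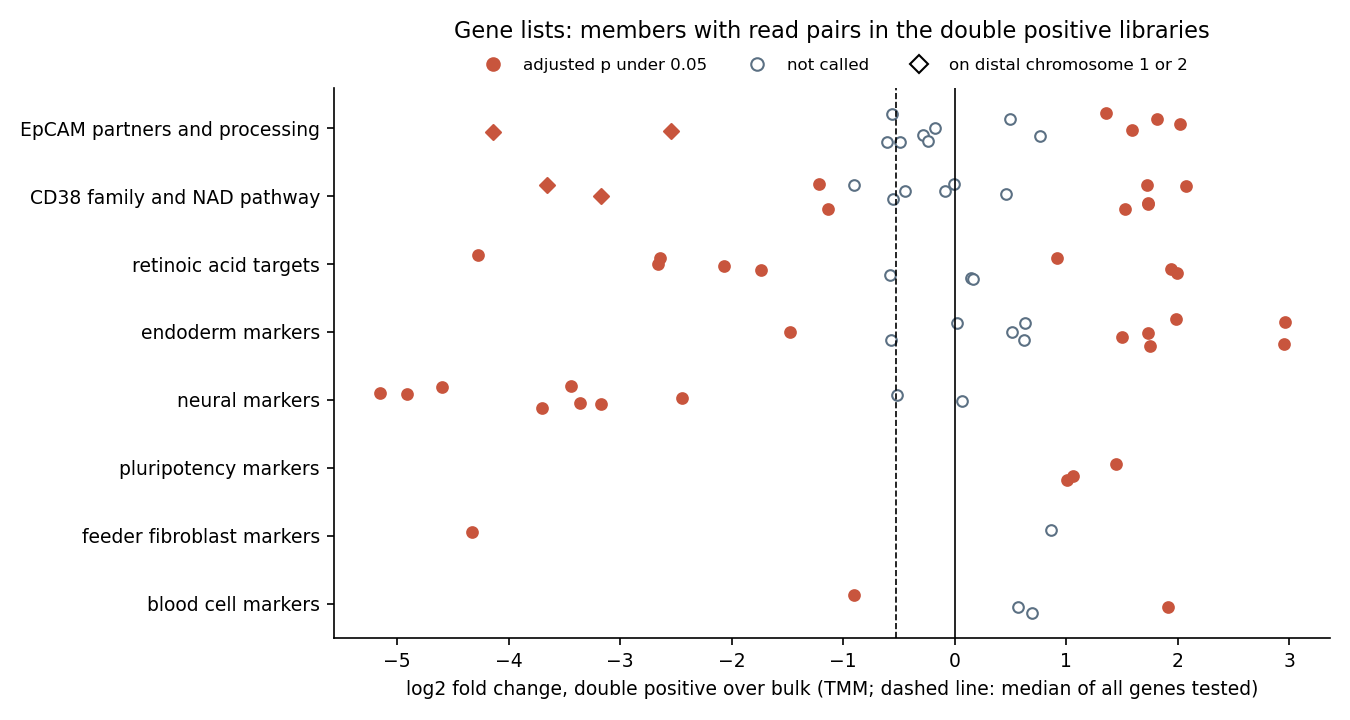
Log2 fold change (TMM, horizontal axis) of the members of 8 gene lists (rows) with read pairs in double positive libraries. Filled points passed the test, open points did not, and diamonds lie on distal chromosomes 1 or 2. The dashed line is the median of all genes, -0.52. Of the endoderm markers 6 lie past the threshold on the right, and of the neural markers 8 on the left.

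Promoters with the pattern most like the markers' over the 17 libraries were found by Pearson correlation of log2(CPM + 1), given as a description since the libraries share their group and depth. For Epcam these were H2-T22 and Gm6034, which share an anchor and the same read pairs (r = 0.928), and Ociad2 (r = 0.909). For Cd38 they were Clta, a clathrin light chain gene (r = 0.929), Mllt1 (r = 0.928) and 1700021F05Rik (r = 0.925). Epcam and Cd38 themselves had r = 0.653. Among all tested genes ordered in this way, Cd38 ranked 1493 for Epcam and Epcam 2184 for Cd38.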

How the data were processed

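The authors mapped the H3K27ac HiChIP reads to the mm9 build (HiC-Pro) and used hichipper for peaks and loops. Replicates with few strong loops had been left out by them. For each of the 17 libraries they deposited counts, that is how many read pairs support each loop, not normalized. The samples whose peaks gave each anchor list are not given in the sources used here. Most loops have few read pairs, so depth limits single loops.

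Anchors that overlapped between libraries were merged (216081 remained) and loop counts were added up on them, which dropped 700 read pairs whose anchors became one. Read pairs were summed per loop, per anchor and per protein-coding gene (GENCODE vM1 start sites, 5 kb). A feature was tested if it had 20 or more read pairs in total and was seen in 5 or more libraries, with edgeR 4.0.16 (R 4.3.3; TMM, quasi-likelihood, Benjamini-Hochberg, threshold 0.05). Differences of means per library were tested with two-sided exact permutation tests over all 6188 divisions into 5 and 12 libraries (Python 3.11.15, scipy 1.17.1). Intervals are Clopper-Pearson at 95%. Anchor edges lay within 5 bases of GATC in 99.9993% of cases.

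Named are Epcam, Cd38, all protein-coding genes within 500 kb, the 5 partners with the largest summed mean CPM, the 2 genes of each list with the smallest p in each direction past the threshold, members at 0 in double positive libraries among the 3 with most bulk read pairs, and the 3 promoters most correlated with each marker. Further list members, partners with fewer read pairs and genes inside partner anchors were named after their values were seen. A neighbour and a list member that the rule names are not reported here. The markers, lists and tests were chosen with earlier results of these data known. Alternatives were DESeq2 1.42.0 (poscounts), library size, TMMwsp, other filters, shared anchors, spans of at least 20 kb, other TSS windows, thinning, a replicate block and left-out replicates. TMM-scaled CPM, shares of the surroundings and of partner anchors, the left-out high bulk library, surroundings with each library left out, levels per kb of listed anchors, loops per library on shared anchors, lists without distal chromosomes 1 and 2, and the 10 libraries of the block without it were added after the data were seen. On simulated counts with 200 changed features, the test recovered 63% of genes, 31% of anchors and 34% of loops changed 4-fold. All other features had the same mean level in both groups there, so the simulation did not hold the unlike anchor lists of the data. All 66 bulk and 10 double positive pairs of libraries differed by more than sampling noise (chi-square), so none was counted as deposited more than once.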

Additional observations from a re-analysis of the deposited data

Results flagged for a closer look

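Among 36 values set out for the 5 double positive libraries, 3 had a library far from the other 4 by Dixon's test, and chance flags about 1 in 20 such groups. The loop between Epcam and the Msh6 promoter reached 58.8 CPM in 1 library and 0 to 16.9 CPM in the others, which is 3 read pairs against 0 to 2. Sirt6 reached 752 CPM in 1 library and 550 to 588 CPM in the others. Krt8 had 274 CPM in 1 library and 415 to 465 CPM in the others.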

How the results depend on the processing

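The CPM differences at Epcam and Cd38 kept their direction in every setting tried, and lost significance with TMM-scaled totals (13.3 and 17 CPM) and, at Epcam, on shared anchors (12 CPM). Without each double positive replicate they were 38.5 to 62.9 CPM at Epcam and 78.5 to 113 at Cd38. The TMM fit of Epcam turned to -0.27 with the 10 kb window, and passed with library size (2.75). Epcam had 13 bulk read pairs and reached the minimum of 20 only through the double positive group, so that pass is a description. Cd38 passed with library size (2.38), shared anchors (1.86) and the 2.5 kb window (1.01). The value on shared anchors, with 6 bulk read pairs, reached the minimum only through the double positive group and is likewise a description. The number of Cd38 loops per library differed by 3.87 on shared anchors, now past the threshold, but with unlike depth there and no scaling for it. Leaving out replicates gave log2 fold changes of 0.79 to 1.27 at Epcam and 0.40 to 0.96 at Cd38.

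Replicate numbers did not pair the libraries (correlations of deviations from -0.011 to 0.011). With the replicate block, log2 fold changes were 1.45 at Epcam and 0.70 at Cd38, and 1104 loops were higher. The Cd38 loop had 1.31 with the block and 1.36 in the same 10 libraries without it.

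Leaving out single libraries, the CPM difference around Epcam ranged from -48.7 to 107, turning positive without bulk replicate 7 (107) and without double positive replicate 2, 4 or 5 (5.92, 14.3 and 20.7). Around Cd38 it was 56.6 to 156. Calls of the Cd38 TSS anchor, the Prom1 anchor, Bst1 and Gm16401 were each lost without some library.

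Signs also turned for neighbours. Fbxl5 had 1.45 (library size), 0.65 (shared anchors), 0.093 (2.5 kb), and -0.43 to 0.0077 with single replicates left out. Bst1 had 0.50, 0.40 and, with 10 kb, 0.21. Fbxo11 had 0.46 and 0.53, Tapt1 1.41 and 2.33 and Ttc7 1.20 and 1.46 (library size, shared anchors). Gm16401 had 0.17 and the Prom1 anchor 0.16 (library size). Calm2, Fgfbp1 and Mcfd2 changed sign in 14, 10 and 14 alternatives.

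With library size 7801 genes, 4129 loops and 9880 anchors were higher, and 3701 genes and 740 loops lower. With at least 50 read pairs 336 loops were higher, and 3765 genes, 195 loops and 8780 anchors lower. On shared anchors 988 genes, 552 loops and 1897 anchors were lower, by construction of that setting. Lower were also 3023 genes after thinning, 413 loops of at least 20 kb and, with no filter, 9747 genes, 44 loops and 151839 anchors. Leaving out replicates gave 2571 to 2987 genes higher and 5827 to 6082 lower, 1693 to 2086 loops higher and 1148 to 1235 lower, and 3740 to 4654 anchors higher and 32575 to 33288 lower. Other causes were not tested. Epcam could not be tested with at least 50 read pairs or after thinning, so its 38 read pairs limit what any setting can show.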
